A study of Mus musculus with 4 samples.

Results

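Fibroblasts of the mouse colon that carried the fibroblast growth factor receptor gene Fgfr2 and lacked Thy1, the gene for CD90, were selected by a gate on 11 genes. A gated cell had at least 1 unique molecular identifier (UMI, a counted transcript molecule) of Fgfr2 and of Col1a2, a type I collagen chain, and 0 UMIs of Thy1, Stmn2, Ackr4, Pi16 and Myh11. It also had at most 1 of Sox6, F3, Foxl1 and Bmp7 detected, genes that mark PDGFRαhi FB. Of 15119 colonic cells that passed the cell filter (at least 500 genes and 1000 UMIs and at most 10% mitochondrial UMIs), 14646 had Col1a2 and 1024 were gated. Colon replicate 1 gave 187 gated cells and colon replicate 2 gave 837. The comparator was the other 13622 colonic cells with Col1a2, read in each library separately.

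The study profiled mesenchymal stromal cells (MSC) from the lamina propria (LP) of untreated C57BL6/Nrj mice, which were female and 8 to 10 weeks old. Peyer's patches, muscularis externa and epithelium had been removed, and live cells were sorted that lacked CD45, Ter119, CD31, BP3, EpCAM and L1CAM and carried integrin β1. Colon and small intestine were each sampled in 2 experiments with 3 pooled mice, so that a library stands for a pool and not for an animal. The 4 libraries held 14341443 to 52269372 UMIs, and the median QC-passing cell had 8848 UMIs in colon replicate 1 and 3927 in colon replicate 2. Barcodes shared between libraries numbered 0 for the colon pair and 69 for colon and small intestine replicate 2. The 4 libraries passed 32216 cells in all.

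FGFR2 is a receptor tyrosine kinase that binds fibroblast growth factors with heparan sulfate as a cofactor, and its signalling is best known from the exchange between epithelium and mesenchyme in organ formation. In the gut, subepithelial fibroblasts make WNT ligands, R-spondins, bone morphogenetic proteins (BMP) and their antagonists, which set where crypt cells divide or differentiate. Fibroblasts of the lamina propria also lay down collagen and release chemokines for leukocytes.

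The gated cells were 8.68% of the Col1a2 cells of colon replicate 1 (95% exact binomial interval 7.53 to 9.95) and 6.70% of those of replicate 2 (6.27 to 7.15). These intervals cover counting error only. The share rested on depth and on the gate, since 5.54% and 3.03% were gated after each cell had been thinned to 1000 UMIs. With at least 2 Fgfr2 UMIs the shares were 4.69% and 1.57%. Gating the small intestine by the same 11 genes gave 354 and 3157 cells, or 26.3% and 20.8% of its Col1a2 cells.

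Most Fgfr2 cells of the colon were outside the gate. Of the Col1a2 cells with Fgfr2, 26.9% of 694 were gated in replicate 1 and 47.2% of 1773 in replicate 2. Thy1 was present in 44.7% and 25.2% of them, and 2 or more of the 4 PDGFRαhi FB genes in 186 and 202 cells. The cells outside the gate were grouped by what excluded them: Fgfr2 at 0, Thy1 or Stmn2, Ackr4 or Pi16, Myh11, or 2 or more of the 4 PDGFRαhi FB genes. Each of these groups holds cells excluded by that feature alone, apart from Fgfr2, which they may have or lack. Cells excluded in more than one way form a mixed group of 595 and 1758 cells. Fgfr2 was found in 51.8% and 24.1% of the Thy1 or Stmn2 cells, against 3.25% and 6.63% of the cells without Col1a2, which were shallower (median 4863 and 2304 UMIs, against 8865 and 4209 in gated cells). Among the cells excluded by the 4 PDGFRαhi FB genes alone the share was 24.4% in replicate 1 and 6.22% in replicate 2, the latter no higher than in cells without Col1a2.

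Many members sat at the edge of the gate. Exactly 1 Fgfr2 UMI was counted in 46.0% of the gated cells of replicate 1 and in 76.6% of those of replicate 2. None of the 4 PDGFRαhi FB genes was detected in 98 and 583 gated cells, and 1 was detected in 89 and 254. F3, the tissue factor gene, was that gene in 26.2% and 14.5% of gated cells and Bmp7 in 19.8% and 12.1%. Just outside, 77 and 70 cells with Fgfr2 had 2 of the 4 genes, and 79 and 162 had 1 Thy1 UMI as their only excluding count. Adamdec1 was at 7586 and 5359 CPM (the UMIs of a gene scaled to the summed UMIs of its group) in gated cells with none of the 4 genes, at 7862 and 5799 in those with 1, and at 7282 and 6380 in the cells just outside with 2. In the cells with 1 Thy1 UMI Adamdec1 was at 6514 and 4393 CPM.

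The label held for Adamdec1, the 1 label marker outside the gate. Fgfr2 (chromosome 7, 130162451 to 133123350, minus strand, GENCODE vM21 on GRCm38) and Col1a2 were set by the gate, so their levels are no finding. Adamdec1, which encodes a metalloproteinase-like protein of gut fibroblasts, was at 7733 CPM in gated and 4254 CPM in other Col1a2 cells of replicate 1, and at 5505 and 2611 CPM in replicate 2. The log2 difference (pseudocount 1 CPM) was 0.86 and 1.08. Adamdec1 was detected in 96.8% and 92.1% of gated cells, against 80.6% and 69.7% of the other Col1a2 cells and 4.69% and 38.3% of cells without Col1a2. After thinning, Adamdec1 was found in 89.8% and 83.9% of gated and 65.5% and 55.2% of other Col1a2 cells.

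Endothelial, SMC and pericyte markers were at lower levels in gated than in other Col1a2 cells. The plasma cell genes Jchain, Igha and Igkc were found in a larger share of gated cells in both libraries, and Mzb1 in replicate 1 only. At least 1 UMI of Pecam1, Cdh5, Kdr, Ptprc, Kit or Epcam was found in 1 gated cell of replicate 1 (0.535%) and in 8 of replicate 2 (0.956%), against 3.20% and 1.30% of other Col1a2 cells. The summed level of the endothelial list was 0.628 and 0.846 CPM in gated cells and 32.2 and 7.22 CPM in the others, with Cdh5 and Kdr at 0 in both gated groups. SMC markers outside the gate summed to 549.7 and 382.7 CPM, against 7712 and 2706 CPM. Pericyte markers summed to 116 and 80.1 CPM, against 438 and 141 CPM. The plasma cell gene Jchain was found in 8.02% and 3.70% of gated and in 5.44% and 1.72% of other Col1a2 cells, and Igkc in 6.95% and 5.97% against 2.80% and 4.39%. The 4 plasma cell markers summed to 43.3 and 61.5 CPM in gated and to 43.4 and 146 CPM in other cells. Cd52, an immune cell gene, was found in 3.21% and 1.08% against 2.03% and 0.472%, with Ptprc at 0 in the gated cells. The part of these transcripts in the results was not tested. Of the 4 PDGFRαhi FB markers that the gate left free, Bmp3 and Wnt5a were lower past the fold, and Pdgfra and Bmp5 had lower levels in both libraries. Of the 4 free CD90+ FB markers, none passed the fold, and Igfbp5 was at 420.3 and 583 CPM in gated against 251 and 277 CPM in other cells.

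To ask how gated cells differ from the remaining fibroblasts and muscle cells, a gene was counted as higher or lower where its log2 difference was beyond 1 in both libraries and its higher side held at least 50 UMIs in each. These counts describe the members and carry no test, since the gate chose the cells by values from the same cells. Outside the gate's own genes, 20 of 4231 genes (0.473%) were higher and 256 of 11201 (2.29%) were lower. The 20 were Serpina3g, Igfbp3, Aldh1a3, Ccl8, Ces1d, Serpina3n, Cxcl10, Frzb, Cp, Cd36, Vstm4, S1pr3, Plppr3, Sfrp1, Cxcl16, Pgf, Asb4, Lox, Kcnk2 and Sowahc. In the count of lower genes, 73 remained when 50 UMIs had to be expected in the gated cells. In the plot of the differences of both libraries the higher genes form a small cloud, and the lower genes a long tail.

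**Figure D1:**
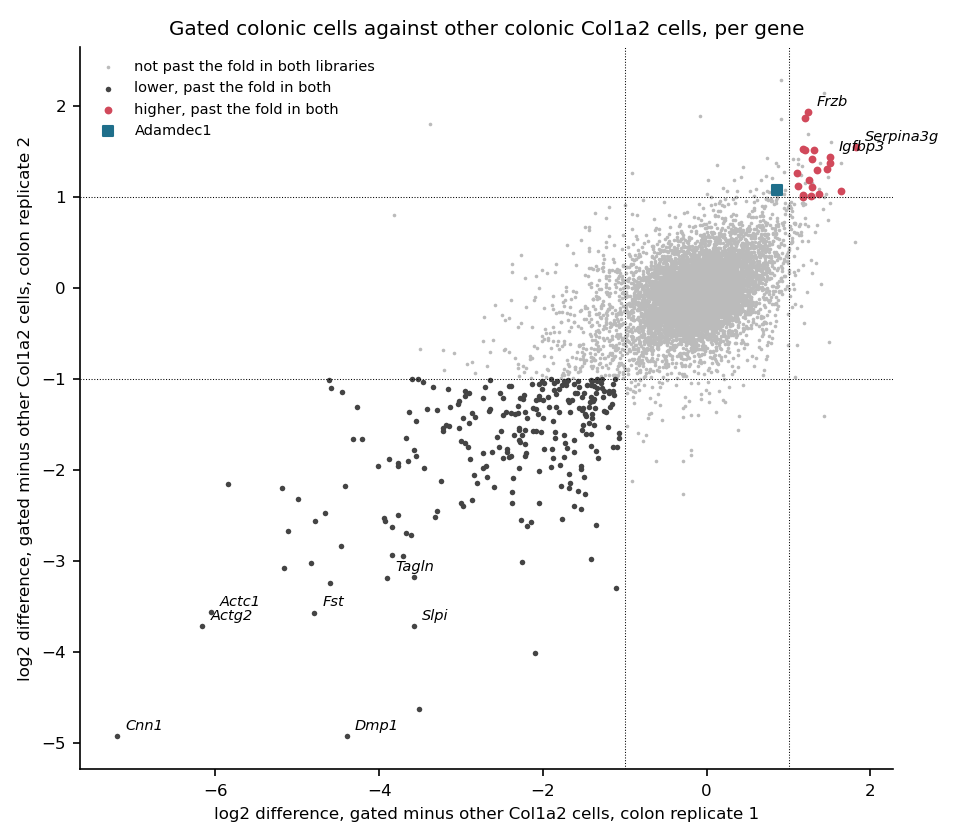
Each point is a gene, placed by its log2 difference (gated minus other Col1a2 cells, pseudocount 1 CPM) in colon replicate 1 (x axis) and colon replicate 2 (y axis). The 20 higher genes (red) lie above 1 on both axes, the 256 lower genes (black) reach a log2 difference of -7.20 for Cnn1 in replicate 1, and Adamdec1 (square) is at 0.86 and 1.08.

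Igfbp3, a secreted protein that binds insulin-like growth factors, was at 2870.5 CPM in gated and 1008 CPM in other cells of replicate 1, and at 1442 and 531 CPM in replicate 2. It was detected in 92.5% and 85.0% of gated cells, against 57.0% and 45.3% of the other Col1a2 cells, and still in 73.3% and 60.7% against 35.7% and 27.2% after thinning. The log2 difference was 1.51 and 1.44. Cells without Col1a2 held Igfbp3 in 65.3% (replicate 1) and 14.3% (replicate 2), so that in replicate 1 its presence was not particular to fibroblasts.

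Aldh1a3, which makes retinoic acid from retinaldehyde, was at 144 against 50.1 CPM in replicate 1 and at 96.5 against 36.5 CPM in replicate 2. It was found in 47.1% (88 of 187) and 24.97% (209 of 837) of gated cells and in 17.6% and 10.2% of other Col1a2 cells. The share in cells without Col1a2 was 1.44% and 3.57%. Of 15 genes of vitamin A metabolism, 8 of which could be counted as higher and 9 as lower, Aldh1a3 was the 1 higher past the fold and Rbp4, a retinol carrier, the 1 lower (148 against 516 CPM and 109 against 282 CPM). The median log2 difference of the list was -0.16 and -0.03, and that of all genes tested -0.10 and -0.06, the values against which the other lists' medians are read.

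Chemokine genes held 3 of the 20. Cxcl10, a ligand of CXCR3 on activated T cells, was at 603 against 246 CPM in replicate 1 and at 2128 against 798 CPM in replicate 2. Ccl8, a ligand for monocytes and T cells, was at 229 against 91.6 CPM and at 210 against 73.1 CPM. Cxcl16, which exists as a membrane-bound and a soluble ligand of CXCR6, was at 134 against 61.9 CPM and at 109 against 44.8 CPM. Cxcl10 was found in 40.1% and 55.9% of gated cells, against 17.6% and 35.0% of other Col1a2 cells and 5.42% and 17.9% of cells without Col1a2. The 1 cell with most Cxcl10 held 13.9% of its gated UMIs in replicate 1 and 1.47% in replicate 2.

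Of 31 chemokines, cytokines and receptors measured, 23 had enough UMIs to be counted as higher and 28 as lower, and 3 were higher and 0 lower, with a median log2 difference of 0.42 and 0.31. Ccl11, the eosinophil chemokine eotaxin, was at 1690 against 680 CPM and at 586 against 293 CPM, log2 differences of 1.31 and 0.99. Cxcl9, induced by interferon gamma, had 32 gated UMIs in replicate 1 and 405 in replicate 2, with levels of 20.1 against 10.2 CPM and 114 against 22.6 CPM. Of 22 interferon response and antigen presentation genes, of which 15 could be counted as higher and 22 as lower, 0 passed the fold, and the median was 0.24 and 0.40. Iigp1, an interferon-induced GTPase, was at 114 against 68.1 CPM and at 351 against 129 CPM.

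Serpina3g and Serpina3n, inhibitors of serine proteases that lie in one gene cluster, were both higher. Serpina3g was at 117 against 32.3 CPM in replicate 1 and at 139 against 46.9 CPM in replicate 2, and Serpina3n was at 692 against 272 CPM and at 318 against 128 CPM. Members of this gene family are close in sequence, and how reads were split between them is uncertain. Ces1d, a carboxylesterase, was at 527 against 190 CPM and at 268 against 108 CPM. Cp, the ferroxidase ceruloplasmin, was at 67.2 against 28.6 CPM and at 73.9 against 25.2 CPM.

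The upstream DNA of Cxcl10, Serpina3g and Ccl8 is shown because Cxcl10 is a textbook target of interferon and the other two were higher beside it. The 250 bases before the RefSeq start (GRCm38.p6) are given 5′ to 3′ along the gene. Capitals mark a match to the interferon-stimulated response element core or to the interferon gamma activated site TTCNNNGAA, searched on both strands.
Cxcl10, chr5:92348890-92349139, minus strand: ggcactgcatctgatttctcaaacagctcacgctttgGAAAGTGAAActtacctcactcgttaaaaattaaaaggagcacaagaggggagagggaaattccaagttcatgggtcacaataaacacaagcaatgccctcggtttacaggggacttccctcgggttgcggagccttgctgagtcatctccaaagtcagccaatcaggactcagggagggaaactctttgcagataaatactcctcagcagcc
Serpina3g, chr12:104235897-104236146, plus strand: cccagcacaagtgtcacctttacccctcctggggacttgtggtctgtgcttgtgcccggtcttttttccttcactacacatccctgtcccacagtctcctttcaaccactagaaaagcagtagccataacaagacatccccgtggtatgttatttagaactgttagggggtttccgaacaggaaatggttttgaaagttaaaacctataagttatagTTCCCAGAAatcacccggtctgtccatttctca
Ccl8, chr11:82114935-82115184, plus strand: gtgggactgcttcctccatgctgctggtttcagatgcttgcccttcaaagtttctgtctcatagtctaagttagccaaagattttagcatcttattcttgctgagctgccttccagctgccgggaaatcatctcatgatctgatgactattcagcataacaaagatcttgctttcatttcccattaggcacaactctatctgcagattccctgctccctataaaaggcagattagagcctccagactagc
Cxcl10 held 1 response element core, in the far part of the stretch, and Serpina3g 1 activated site, close to the start. Ccl8 held no match to either. Of the 20 higher genes, 15 had promoters in the table, of which 1 held the response element core and 2 (Serpina3g and Frzb) the activated site. Over all 32851 promoter stretches of this length the shares were 2.98% and 7.02%. A match is a match of letters and not a bound site.

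Cd36, the fatty acid translocase and thrombospondin receptor, was at 46.5 against 19.7 CPM in replicate 1 and at 38.4 against 9.76 CPM in replicate 2. It came from few cells, 19 of 187 (10.2%) and 64 of 837 (7.65%), with 20.3% of its UMIs in replicate 1 from 1 cell. Cells without Col1a2 carried it in 35.7% and 5.10%. Endothelial cells are known to express Cd36. Of the 5 endothelial markers, Cdh5 and Kdr were at 0 in the gated cells, Lyve1 was in 1 gated cell of each library, and Pecam1 and Emcn were each in 1 gated cell of replicate 2. Among gated cells with none of the 4 PDGFRαhi FB genes, the mean log2 difference of Cd36 over the libraries was 0.03, against 1.53 for the whole gate.

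Among WNT factors, the 2 higher genes were secreted frizzled-related proteins, which bind WNT ligands. Sfrp1 was at 1194 against 491 CPM and at 1009 against 467 CPM, and Frzb was at 69.7 against 28.9 CPM and at 36.7 against 8.86 CPM. Lower past the fold were Wnt5a, a ligand of noncanonical WNT signalling (23.9 against 130 CPM and 32.2 against 118 CPM), Sfrp4 and Wif1, a WNT inhibitor with 0 and 5 gated UMIs. The list of 15 (7 could be counted as higher and 14 as lower) had a median of 0.23 and 0.01. Rspo1, which amplifies WNT signalling, was at 15.1 against 6.22 CPM in replicate 1, a log2 difference of 1.15 (1.24 in replicate 2), but its 24 and 39 UMIs were too few for the count. Rspo3 was at 41.5 against 26.9 CPM and at 35.0 against 25.4 CPM.

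In the FGF system, 0 of 19 genes beside Fgfr2 were higher and 3 were lower (8 and 17 had enough UMIs for these counts), with a median of -0.04 and -0.08. The 3 were ligands. Fgf7, the keratinocyte growth factor that binds the epithelial form of FGFR2, was at 49.6 against 130 CPM and at 35.5 against 76.0 CPM. Fgf9 had 0 and 22 gated UMIs (27.5 and 57.4 CPM in the other cells), and Fgf1 had 3 and 19. Fgf10, the other main ligand of epithelial FGFR2, was at 94.2 against 41.2 CPM and at 58.1 against 30.5 CPM, log2 differences of 1.18 and 0.91. Of the other receptors, Fgfr1 was level (log2 differences -0.04 and -0.08), and Fgfr4 was at 17.0 against 5.42 CPM and at 9.31 against 3.43 CPM with 27 and 33 UMIs.

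Among 13 BMP ligands and antagonists, 0 of the 6 that could be counted were higher and 2 lower (median -0.74 and -0.35). Bmp3 was at 2.51 against 44.8 CPM and at 3.67 against 34.9 CPM. Fst, the antagonist follistatin, was at 1.26 against 61.6 CPM and at 5.08 against 71.1 CPM. Bmp4 was level at 746 against 771 CPM and at 727 against 684 CPM, and so was Grem1, a BMP antagonist of cells under the crypt, at 266 against 242 CPM and at 330.3 against 304 CPM. Of 7 EGF family ligands, Nrg1 and Btc were lower and 0 of the 2 that could be counted higher (median -1.06 and -0.77). Nrg1, a ligand of ERBB receptors, was at 42.7 against 116 CPM and at 71.6 against 151 CPM.

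No collagen or further matrix gene was higher past the fold, and 3 and 1 were lower, where 2.29% of all genes were lower. Of 16 collagens, 0 of the 14 that could be counted were higher and 3 lower (Col4a5, Col4a6 and Col6a4; median 0.11 and 0.07), and of 38 further matrix genes 0 of 32 were higher and 1 lower (Sparcl1; median 0.09 and -0.04). Col1a1 was at 3161 against 2531 CPM and at 1915 against 1794 CPM, and Col3a1 at 4924 against 4581 CPM and at 6525 against 6174 CPM. Of 14 complement genes, 7 could be counted as higher and 10 as lower, and 0 passed the fold (median 0.00 and 0.20). The 24 axon guidance and vessel genes had 0 higher of 8 that could be counted and 5 lower (among them Sema3a, Angpt2, Angptl1 and Ednrb; median -0.58 in both libraries). Ednrb, the endothelin B receptor, was at 6.28 against 160.2 CPM and at 18.3 against 137 CPM.

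In the remaining lists, 0 of 22 hedgehog pathway genes and mesenchymal transcription factors were higher (16 could be counted) and 3 lower (Hhip, Osr2 and Prrx1; median 0.16 and -0.03). Of 33 Hox genes, most of them under the UMI limit, 3 could be counted as higher and 12 as lower, and 1 was lower (Hoxb2; median -0.08 and 0.09). Of 15 immediate early and heat shock genes, which respond to tissue digestion, 0 passed the fold (median 0.25 and 0.17). Of 12 surface antigens outside the gate, Cd81, Esam and Mcam were lower (median -1.08 and -0.64). Cd34 had no common direction, at 418 against 355 CPM and at 260.3 against 384 CPM.

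The lower genes with the largest differences belonged to muscle and to PDGFRαhi FB. Cnn1, Actg2, Actc1 and Tagln are contractile genes, and Cnn1 had 1 and 5 gated UMIs, against 238 and 72.3 CPM in the others. In the cells excluded by Myh11 alone, the smooth muscle myosin gene, Cnn1 was at 1440 and 752 CPM. Dmp1, Slpi, Fst, Spp1 and Ptpre were at 31.1, 36.0, 145, 19.0 and 70.0 CPM in the PDGFRαhi FB gene cells of replicate 1, those excluded by these 4 genes alone. Their gated UMIs in replicate 1 numbered 0, 1, 2, 0 and 3. Esam, a junction protein, had 1 gated UMI in each library. Without the Myh11 and mixed cells among the comparators, 5 genes stayed higher (Cp, Aldh1a3, Ces1d, S1pr3 and Serpina3g), and Actg2, which was at 2728 and 1726 CPM in those Myh11 cells, turned to a mean log2 difference of 0.50.

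The difference was therefore read against each group by itself. The 20 genes were chosen as higher than these groups pooled, so lying above most of them follows in part from the choice. Any excess was counted, as for Serpina3n of replicate 1 at 692 against 648 CPM in Thy1 or Stmn2 cells. All 20 higher genes were above their levels in the Thy1 or Stmn2 cells and in the PDGFRαhi FB gene cells in both libraries. Exceptions elsewhere were Kcnk2 against cells with Fgfr2 at 0, Cxcl10 against Ackr4 or Pi16 cells and S1pr3 against Myh11 cells, for which 19 of 20 were above. In the plot of levels by group, gated cells had the highest level of all 8 genes in both libraries, but for Cxcl10 in replicate 1.

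**Figure D2:**
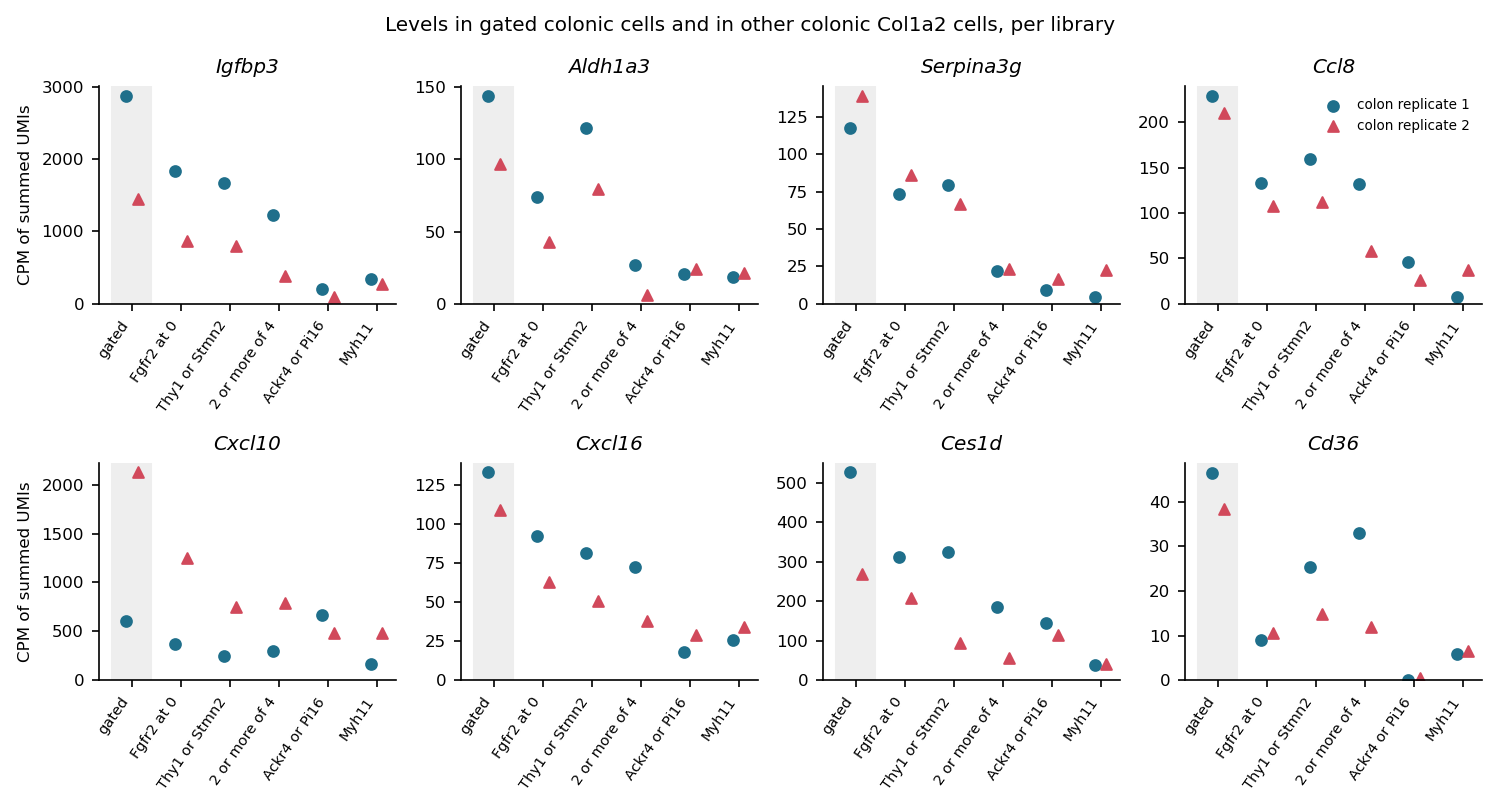
Levels of 8 genes (CPM of summed UMIs, linear axes from 0) in gated cells (shaded) and in 5 groups of other Col1a2 cells, with a circle for colon replicate 1 and a triangle for replicate 2. Igfbp3 runs from 2870.5 and 1442 CPM in gated cells to 198.5 and 99.7 CPM in Ackr4 or Pi16 cells, and Cxcl10 of replicate 1 is at 666 CPM in Ackr4 or Pi16 cells against 603 CPM in gated cells.

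Against cells that passed every other part of the gate but had 0 Fgfr2 UMIs (225 and 3688 cells), few genes differed. Only 2 of 4231 genes (0.0473%) were higher, Cd36 (46.5 against 8.98 CPM and 38.4 against 10.6 CPM) and Ces1g (53.4 against 25.4 CPM and 43.2 against 12.8 CPM), a carboxylesterase. Of 3873 genes, 12 (0.310%) were lower: Ptn, Fabp4, Ebf1, Il1rl1, Cilp, Prss23, Pcolce2, Fibin, Cd81, Plvap, Tm4sf1 and Has1. Cd81, the marker of CD81+ FB, was at 50.9 against 204 CPM and at 58.7 against 153 CPM. Ebf1 and Pcolce2 had their highest levels among the groups in Ackr4 or Pi16 cells (650.3 and 684 CPM in replicate 1). Adamdec1 was at 4455 and 3183 CPM in the cells with Fgfr2 at 0, log2 differences of 0.80 and 0.79. The cells with Fgfr2 at 0 were shallower (median 5554 and 3367 UMIs), and how many of them carry unseen Fgfr2 transcripts was not tested.

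Against the Thy1 or Stmn2 cells (444 and 2068), which stand nearest to CD90+ FB, 22 of 4231 genes (0.520%) were higher and 40 of 7686 (0.520%) lower. Nrg1 led the higher genes, at 42.7 against 6.53 CPM and at 71.6 against 15.0 CPM. Cxcl14, a chemokine of subepithelial stroma, was at 285 against 96.3 CPM and at 228 against 49.6 CPM. Ces1g, Cxcl10, Pappa, a protease of IGF-binding proteins, and Emid1 followed. Lower were Fabp4, a fatty acid carrier (0 and 6 gated UMIs), Sfrp2 (8.17 against 103 CPM and 15.0 against 79.5 CPM), Rcan2, Spock3, Emilin2 and Plxdc1. Cd34 was at log2 differences of -0.77 and -1.08.

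Against the PDGFRαhi FB gene cells (422 and 1832), 154 of 4231 genes (3.64%) were higher and 303 of 7980 (3.80%) lower. Grem1 was at 266 against 31.3 CPM and at 330.3 against 18.9 CPM, and Ccl11 at 1690 against 236 CPM and at 586 against 49.2 CPM. Il33, an alarmin cytokine, and Mfap5, a microfibril protein, were higher as well, with log2 differences from 2.89 to 3.33. Wif1 and Fst were lower, with Fst at 1.26 against 145 CPM and at 5.08 against 203 CPM. Adamdec1 was level there, at log2 differences of 0.23 and 0.28. Against Ackr4 or Pi16 cells (65 and 1280), 258 of 4231 (6.10%) were higher and 80 of 1186 (6.75%) lower, and Adamdec1 was at 7733 against 125 CPM and at 5505 against 288 CPM. Against Myh11 cells (216 and 1029), 166 (3.92%) were higher and 356 of 4825 (7.38%) lower.

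The gated cells varied with the number of Fgfr2 UMIs, which also rises with depth. From 1 to 3 or more Fgfr2 UMIs, Cxcl14 went from 87.0 to 580 CPM in replicate 1 and from 203 to 437 CPM in replicate 2. Nrg1 went from 20.6 to 91.2 CPM and from 62.7 to 216.5 CPM, and Cxcl10 from 324 to 1068 CPM and from 1991 to 3414 CPM. Cd34 went down, from 503 to 274 CPM and from 284 to 94.7 CPM, as did C3, the central complement component, from 181 to 85.5 CPM and from 160 to 27.1 CPM. With each cell thinned to 1000 UMIs these 5 genes kept their directions in both libraries, for example Cxcl14 from 46.5 to 308 CPM and from 184 to 409 CPM. Aldh1a3 went from 186 to 154 CPM and from 93.6 to 114 CPM, with no common direction. The cells kept the bins set before thinning, so the part of depth in the bins was not tested. The 5 genes were picked after their values were seen. These are sums over 86, 49 and 52 cells in replicate 1 and 641, 152 and 44 cells in replicate 2.

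**Figure D3:**
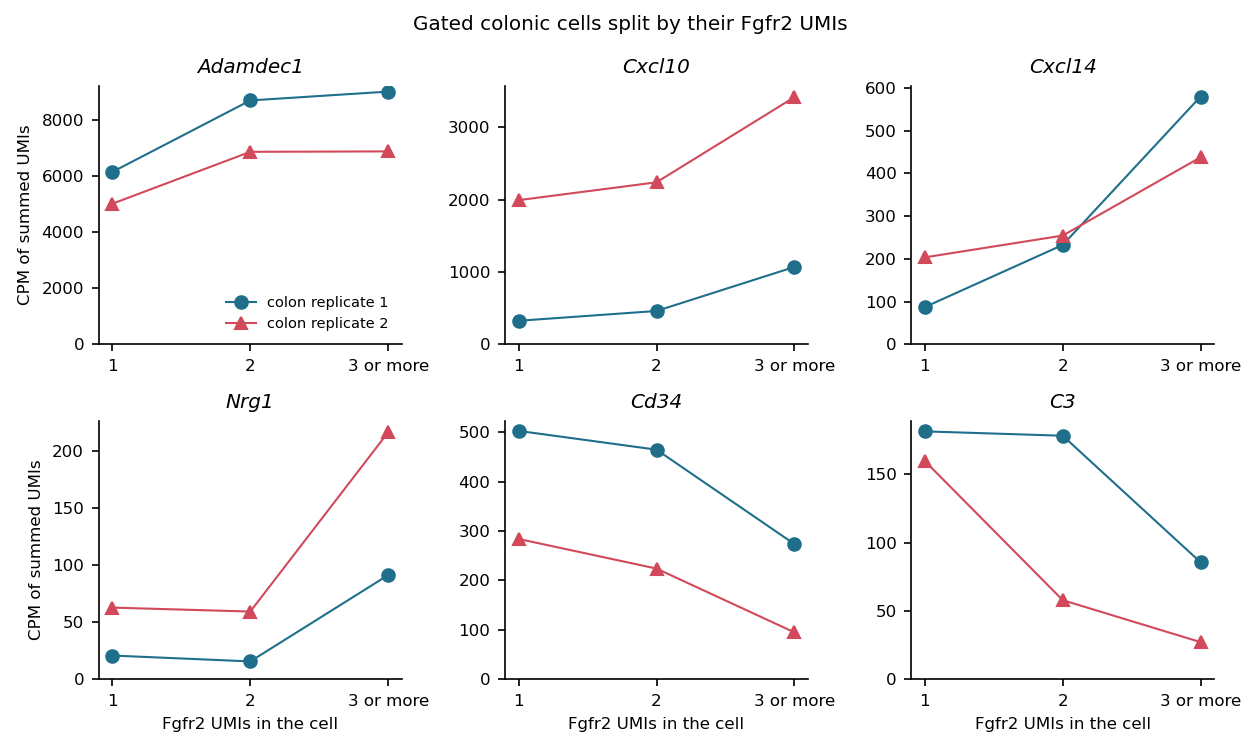
Levels (CPM of summed UMIs, linear axes from 0) of 6 genes in gated colonic cells with 1, 2 or 3 or more Fgfr2 UMIs, with a line for each colon library. Cxcl10, Cxcl14 and Nrg1 end higher at 3 or more UMIs in both libraries and Cd34 and C3 end lower, with replicate 1 Cd34 going from 503 to 274 CPM.

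Splitting members by the 4 PDGFRαhi FB genes gave a like picture for Nrg1, at 14.8 and 60.3 CPM with none detected and at 67.2 and 94.5 CPM with 1, and at 109 and 210.1 CPM in the cells just outside with 2. Grem1 ran the other way, at 334 and 393 CPM with none, 207 and 204 CPM with 1, and 89.8 and 60.8 CPM just outside. Cd34 was at 439 and 285 CPM, 399 and 210.3 CPM, and 214 and 132 CPM in the same order. For these 3 genes the cells just outside continued the order seen inside the gate.

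To ask what sets colonic members apart from cells of the small intestine, the same gate was compared between intestines with the quasi-likelihood test of edgeR on UMIs summed per library. A call needed an adjusted p (Benjamini-Hochberg, over all genes) under 0.05 together with a log2 fold change over 1.5 in size. Of 10981 genes, 31 were called (0.282%), 21 higher and 10 lower in colon (0.191% and 0.0911%). Among the called genes were 7 Hox genes, genes of retinoid handling and matrix, and WNT factors. The count was fragile. It was 0 with a minimum of 1000 genes per cell (945 at an unadjusted p under 0.05), 4 without small intestine replicate 2, 91 without colon replicate 1, 72 without colon replicate 2 and 241 with the Wald test of DESeq2. It was 447 (4.07%, 237 higher and 210 lower, with the 31 among them) with the replicate number as a block. Libraries of one number had the same Cell Ranger version and the same start of their barcodes in both intestines, and the block stands for that shared processing. With 4 libraries the block leaves little freedom to measure the spread of a single gene. Its small adjusted p-values therefore rest largely on the spread pooled over genes. Calls gained with the block are given beside the genes and lists of the tissue test below.

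Hoxa10, Hoxa11 and Hoxd11, which specify posterior identity, had 109 and 172, 67 and 109, and 50 and 102 UMIs in gated cells of colon replicates 1 and 2, and 0 in both small intestinal libraries. Against a floor of 3 counts over the group, they were at least 231-fold, 144-fold and 125-fold higher in colon. Pitx1, a hindgut and hindlimb transcription factor, was at 229 and 289 CPM in colon and at 12.8 and 14.2 CPM in small intestine (log2 fold change 4.28, SE 0.29, adjusted p = 0.0424). Of 24 Hox genes tested, 5 were higher (also Hoxa9 and Hoxd9) and 2 lower in colon (Hoxc4 and Hoxb4), with a median log2 fold change of -3.05, against 0.01 for all genes. With the block, 8 were higher and 14 lower. Hoxb4 was at 10.1 and 10.7 CPM against 93.6 and 77.8 CPM.

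Retinoid genes went in opposite directions. Rbp4 was at 148 and 109 CPM in colonic and 3.19 and 6.51 CPM in small intestinal gated cells (log2 fold change 4.64, SE 0.41, edgeR adjusted p = 0.0459). Lrat, which esterifies retinol for storage, had 0 and 2 UMIs in colon and 1008 and 4146 in small intestine, a level 1047 times as high (counting interval 290 to 8647). Aldh1a3 was at 144 and 96.5 CPM against 405 and 367 CPM and was not called without the block (log2 fold change -1.67, edgeR adjusted p = 0.104). With the replicate block Aldh1a3 was called (-1.69, edgeR adjusted p = 9.29e-12). Of the 10 genes of the list tested, 1 was higher and 1 lower, with a median of -1.24, and with the block 1 was higher and 5 lower.

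Cd36, Cdh13, Clec14a, Adam23 and Lgals3 were also higher in colon. Cd36 had 74 and 136 UMIs in colon and 3 and 2 in small intestine (log2 fold change 6.56, SE 0.59, adjusted p = 0.0459). Cdh13, an adhesion receptor, had 53 and 110 UMIs against 0 and 3, a ratio of 134 (counting interval 44.96 to 655). Adam23 was at 137 and 106 CPM against 4.61 and 3.05 CPM, and Lgals3, a lectin, at 64.7 and 89.4 CPM against 4.26 and 2.14 CPM. Of the WNT factors, Wnt2 and Wnt5b were higher and Dkk2 lower in colon (14 tested, median 0.89; 6 higher and 2 lower with the block), with Wnt5b at 50.3 and 46.8 CPM against 5.32 and 5.80 CPM.

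Lower in colon were Hmcn1, a basement membrane protein, Mmp10, a matrix metalloproteinase, Angptl1, Lrrc55 and C3. C3 was at 149 and 131 CPM in colon against 1470 and 1061 CPM in small intestine (log2 fold change -3.15, SE 0.30, edgeR adjusted p = 0.0478). It was the 1 gene called of 10 complement genes, all of which had a fold change below 0 (median -2.14), and with the block 6 were lower. Hmcn1 had 7 and 22 UMIs against 1023 and 2354, and Mmp10 at 18.8 and 23.7 CPM against 426 and 316 CPM. In the plot of these levels, no colonic value overlapped a small intestinal value of the same gene. The genes were chosen as called with 1 direction in both pairs, so this follows largely from the choice.

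**Figure D4:**
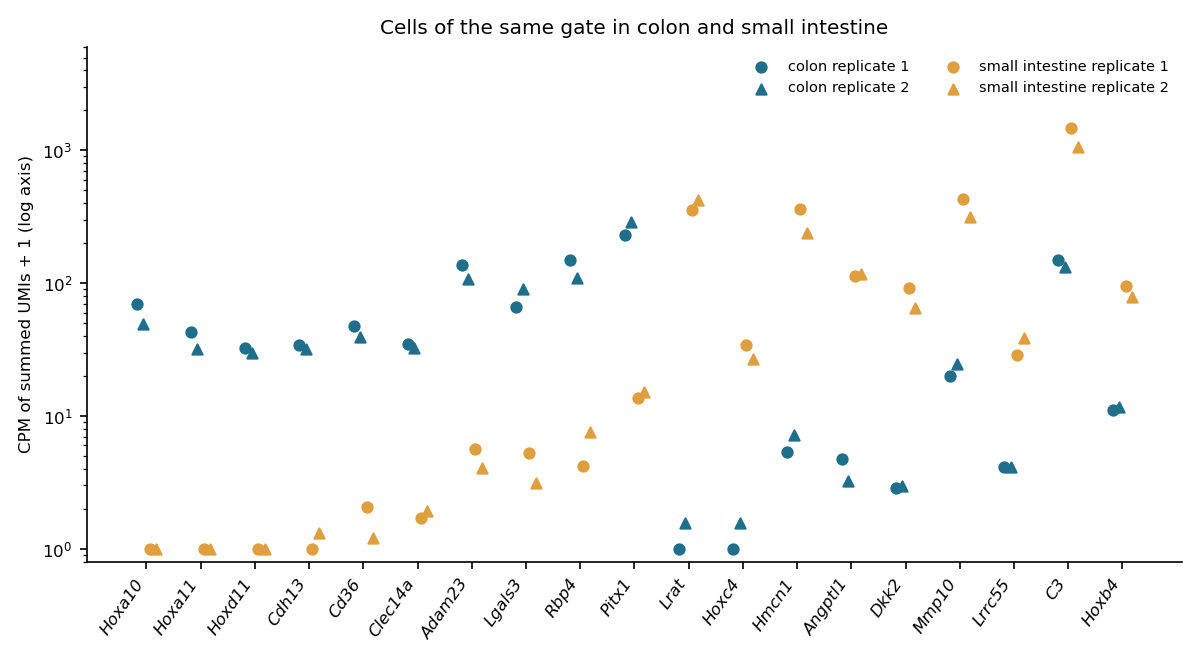
Levels (CPM of summed UMIs + 1, log axis) of the 19 named genes in gated cells of the 2 colonic (blue) and 2 small intestinal (orange) libraries. The first 10 genes are higher in both colonic libraries and the last 9 lower, from Hoxa10 with 0 UMIs in small intestine to Hoxb4 at 10.1 and 10.7 CPM in colon.

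Of the 20 genes higher in the colonic gate, Cd36 alone was called between intestines without the block, and Cd36, Igfbp3, Ccl8 and Aldh1a3 with it. Adamdec1 was at 7733 and 5505 CPM against 7854 and 6606 CPM (log2 fold change -0.11, SE 0.28). For Ces1d, Cxcl10, Cp, Frzb, Serpina3g and Serpina3n the log2 fold change lay between -0.46 and 0.36, with standard errors from 0.245 to 0.632. Igfbp3 was at 2870.5 and 1442 CPM against 721 and 461 CPM and Ccl8 at 229 and 210 CPM against 67.8 and 34.8 CPM, with edgeR adjusted p = 0.213 and 0.128. With the replicate block Igfbp3 (log2 fold change 1.84, adjusted p = 3.93e-12) and Ccl8 (2.23, adjusted p = 0.000108) were called. The lists of chemokines, FGF, BMP, EGF, collagen, interferon and immediate early genes had 29, 15, 10, 5, 16, 22 and 15 members tested. Without the block 0 of them were called, and with it 6, 2, 2, 2, 2, 5 and 0, where 4.07% of all genes were called. Of the 22 interferon response genes, 20 had a fold change below 0 (median -1.04).

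Finally, the difference between gated and other Col1a2 cells was itself compared between intestines, as a gate by tissue term in a fit that also held the libraries. Of 13066 genes, 50 were called (0.383%), 25 in each direction (0.191%). The make-up of the other cells differed between intestines: cells excluded by the 4 PDGFRαhi FB genes alone numbered 422 and 1832 in colon and 34 and 416 in small intestine, Thy1 or Stmn2 cells 444 and 2068 against 34 and 55, and mixed cells 595 and 1758 against 161 and 586. The term is therefore also given against the cells with Fgfr2 at 0 alone, where 30 genes were called, of which 14 were among the 50.

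Nrg1 was lower in gated than in other cells of colon (log2 differences -1.41 and -1.07) and higher in those of small intestine (1.20 and 1.30). The term of Nrg1 was -2.50 (SE 0.18, edgeR adjusted p = 2.76e-05), and -2.23 against cells with Fgfr2 at 0. Within the gate, Nrg1 was at 42.7 and 71.6 CPM in colon and at 11.4 and 17.0 CPM in small intestine. In the tissue test Nrg1 was not called without the block (log2 fold change 2.03, edgeR adjusted p = 0.167) and was called with it (2.07, adjusted p = 3.22e-11). Rspo1 (2.23), Btc (-2.55) and Hoxb2 (-4.01) gained calls in the tissue test with the block as well. Col6a4, a collagen VI chain, had log2 differences of -2.37 and -2.09 in colon and 0.69 and 0.84 in small intestine, a term of -2.98 (SE 0.18). Against cells with Fgfr2 at 0 the term of Col6a4 was -2.60. Itga8, an integrin chain of muscle and mesenchyme, had a term of -3.91 with 1 and 13 gated UMIs in colon and 58 and 115 in small intestine, and lost its call against cells with Fgfr2 at 0 (edgeR adjusted p = 0.292). Btc lost its call there as well (adjusted p = 0.365), whereas Hoxb2 kept it (-2.10 and -2.23).

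In the other direction, Grem1 was level in the colonic gate (log2 differences 0.14 and 0.12) and lower in the small intestinal one (-1.45 and -1.24), a term of 1.58 (SE 0.12). Against cells with Fgfr2 at 0 the term of Grem1 was 0.54, below the limit of 1.5 for a call (edgeR adjusted p = 0.00551). Rspo1 was above the other cells in colon (1.15 and 1.24) and below them in small intestine (-1.30 and -1.41), a term of 3.15 (SE 0.35) on 24, 39, 11 and 21 gated UMIs, and of 2.64 against cells with Fgfr2 at 0. Fam129a had a term of 2.09 (SE 0.25), and of 1.82 against cells with Fgfr2 at 0. Cd36 had a term of 4.34 (SE 0.66), and of 5.02 against cells with Fgfr2 at 0. Its call was lost without small intestine replicate 1 (1.29), without cells that had UMIs of other lineages (2.68) and in cells with none of the 4 PDGFRαhi FB genes (2.61). The calls of Nrg1, Col6a4, Rspo1 and Fam129a were kept in each of the 13 alternatives run. Steap4, Pde1b and Lsamp were higher than in other cells in colon and lower in small intestine, with terms of 1.93, 1.75 and 1.69, but lost their calls against cells with Fgfr2 at 0 (0.77, 0.79 and 0.59).

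**Figure D5:**
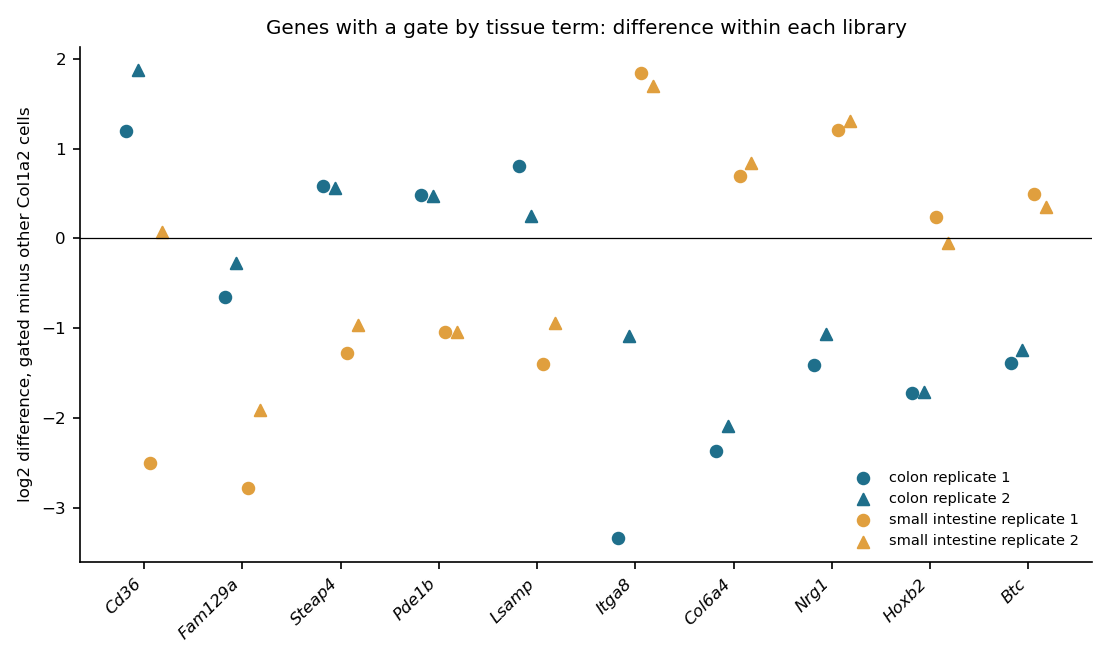
Log2 difference between gated and other Col1a2 cells (y axis, pseudocount 1 CPM) within each library, for the 5 genes with the largest called terms in each direction among those with at least 50 gated UMIs in both libraries of an intestine. Colonic (blue) and small intestinal (orange) libraries lie on opposite sides of 0 for Steap4, Pde1b, Lsamp, Itga8, Col6a4, Nrg1 and Btc, with Nrg1 at -1.41 and -1.07 in colon and 1.20 and 1.30 in small intestine.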

How the data were processed

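Droplet libraries of sorted MSC from colon and small intestine were read from the deposited raw UMI counts per gene and barcode, which the authors had made with Cell Ranger (version 3.0.2 for replicate 1 and 3.1.0 for replicate 2, per the file headers) on mm10 and had not normalised. Whether a library was made with the 3′ or the 5′ kit is not given in the sources used here. Each library had 28692 gene rows. Cells passed with 500 genes or more, 1000 UMIs or more and a mitochondrial share of 10% or less. Doublets were scored with scanpy 1.11.5 and left in, with removal as an alternative. The gate and the comparator groups were applied per library, and UMIs were summed per library and group. Gated and other colonic cells were compared by the log2 difference of CPM with a pseudocount of 1, as a description.

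Gated cells of colon and small intestine were tested with edgeR 4.0.16 (quasi-likelihood test, R 4.3.3), and so was the gate by tissue term, in a fit that held a term for each of the 4 libraries. Calls needed an adjusted p under 0.05 and a log2 value beyond 1.5, and the fits were adjusted over all genes. Replicates are pools of mice that also differ in processing and depth. The p-values of the tissue test without the block measure the spread of pools and processing together. In simulated counts with 200 changed genes, the tissue fit recovered 80% of genes changed by a log2 of 2 and 100% of those changed by 4 (10767 genes). The term recovered 73% and 100% (10158 genes), and false calls numbered 5 and 11. The simulated libraries had a fixed spread and no processing shared between same-numbered libraries, so these shares do not carry over to the data. Postn, at a log2 fold change of 4.17 in the tissue test, was not called (edgeR adjusted p = 0.0605). Intervals are exact binomial or Poisson and cover counting error only.

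Named were the 10 genes with the largest differences in each direction. For the term these were 5, with at least 50 gated UMIs in both libraries of an intestine. For the tissue test they needed 50 UMIs in both libraries of the intestine with the higher level and 1 direction in both same-numbered pairs. Up to 4 members of each gene list were also named, and other genes were named after their values were seen. Members and lists were chosen with earlier results of these data known. Ccl19, Ccl21a and Vegfd were not analysed here, and single values of some other list members are not reported here. Gene positions are from GENCODE vM21, and promoters from RefSeq on GRCm38.p6. Alternatives were DESeq2 1.42.0, other normalisation, filters, pseudocount, thinning, gates and comparators, and each library left out.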

Additional observations from a re-analysis of the deposited data

Results flagged for a closer look

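For 16 named genes the difference between gated and other Col1a2 cells was not the same in colon and small intestine by the gate by tissue term (edgeR, adjusted over all genes). Positive terms, with the difference higher in colon, were 4.34 for Cd36, 3.15 for Rspo1, 2.38 for Col4a6, 2.09 for Fam129a, 1.93 for Steap4, 1.79 for Jchain, 1.75 for Pde1b, 1.69 for Lsamp and 1.58 for Grem1. Negative terms were -3.94 for Slpi, -3.91 for Itga8, -2.98 for Col6a4, -2.50 for Nrg1, -2.10 for Hoxb2, -1.82 for Btc and -1.72 for Angptl1. Slpi rested on 1 and 6 gated UMIs in colon and 1 and 14 in small intestine. Jchain, an immunoglobulin joining chain of plasma cells, had 37 and 41 gated UMIs in colon and 23 and 136 in small intestine. The calls of Col4a6 and Angptl1 were each lost in 5 of the 13 alternatives run. The part of the unlike make-up of the other cells in these terms was not tested beyond the fit against cells with Fgfr2 at 0.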

How the results depend on the processing

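Counts of genes moved with the processing. The tissue test gave 31 calls, with 241 by the Wald test of DESeq2, 298 without a filter on low counts, 63 in cells thinned to 1000 UMIs, 0 with at least 1000 genes per cell (945 at an unadjusted p under 0.05), and 4 to 91 when a library was left out. Where that left 1 library in an arm, it was assumed to vary like the other intestine. The term gave 50 calls, with 119 without the filter, 76 with at least 2 Fgfr2 UMIs, 30 against cells with Fgfr2 at 0, and 49 to 126 when a library was left out. Of the description's 20 higher genes there were 11 with a pseudocount of 10, 42 with a minimum of 10 UMIs, 5 after thinning, 13 with none of the 4 PDGFRαhi FB genes, 5 without Myh11 and mixed cells, and 46 to 51 in either library alone. The 256 lower genes became 59 with the pseudocount, 106 after thinning, 128 without Myh11 and mixed cells, 73 with 50 UMIs expected, and 422 to 752 in either library alone. Actg2 reversed to a mean log2 difference of 0.50 without Myh11 and mixed cells. The shares of gated cells became 4.69% and 1.57% with at least 2 Fgfr2 UMIs, 4.55% and 4.67% with none of the 4 genes, and 5.54% and 3.03% after thinning. The cause of each move was not tested. Named genes stayed on their side of the limit in 210 of 265 repeats of the tissue test and 178 of 208 of the term, and 221 of 273 repeats of the description moved by less than the spread between libraries.

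With the replicate number as a block the tissue test gave 447 calls, among them the 31. Deviations of same-numbered libraries correlated at 0.72 (10987 genes), and libraries of one number shared the Cell Ranger version and barcode start in both intestines, which the block stands for. No label ties it to shared animals. The paper describes sorting subsets of both intestines from the same mice, without naming these libraries. The fit without the block, as planned, is given first. Comparisons against cells with Fgfr2 at 0, without Myh11 and mixed cells, with 50 UMIs expected and without other-lineage cells were chosen after seeing the data. An automatic doublet limit had marked 1 of 15263 cells in small intestine replicate 2, so the highest scores, at 0.8% per 1000 cells, were removed instead.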
